A study of Rattus norvegicus with 4 samples.

Results

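Ion channel genes of 4 kinds were followed in CG4 cells that carried extra Phf8: voltage-gated calcium and sodium channels, chloride channels and exchangers of the Clcn family together with anoctamins, TRP channels, and the calcium release channels of internal stores. They were taken by gene name: every row named Cacna, Cacnb, Cacng, Scn, Clcn, Trpc, Trpm, Trpv, Ano, Ryr or Itpr with its subunit number or letter. This gave 58 of the 14410 genes in the deposited table. CG4 is a rat line of oligodendrocyte progenitors, the cells that form central nervous system myelin. The Phf8oe cells were wild type and carried a retrovirus in which the CAG promoter drives Phf8 together with GFP (genotype label WT, Phf8+ GFP+). The ctrl cells were wild type and carried the same vector with GFP alone (WT, GFP+). Both were sorted for GFP, expanded as transduced populations and differentiated for 3 days, and each group held 2 biological replicates. Nothing in the labels says whether these came from separate transductions, so the spread between these samples may be technical. The p-values rest on that spread. The fit moderates each gene's variance towards the one expected at its level, which comes from these same samples across all genes. A gene's own replicates weigh 2 degrees of freedom there. The variance expected from genes of a similar level weighs 6.99 for the median gene.

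These proteins set how ions cross the membranes of a cell. In voltage-gated calcium channels an alpha1 subunit forms the pore, alpha2delta and beta subunits carry it to the surface and tune it, and sodium channels pair a pore with small beta subunits in a like way. Oligodendrocyte progenitors, unlike most glia, carry voltage-gated calcium and sodium currents, which become smaller as the cells mature, and calcium entry takes part in their contact with axons and in myelin formation. Phf8 is a histone lysine demethylase that reads a methyl mark of active promoters and removes repressive methyl marks.

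Of the 58 channel genes 6 passed the test, all of them lower in Phf8oe, among them Cacna1g, Cacna1a, Ano4, Ano6 and Clcn4. None was called higher and 52 did not pass. Calls were made with limma on log2(normalized count + 1) over 14368 genes at a Benjamini-Hochberg adjusted p under 0.05, and fold changes below are on that scale, which understates changes of low genes. In either direction 10.3% of the channel genes were called, against 7.64% of all tested genes, a share near the background. The share called lower was 10.3%, against 4.65% of all tested genes, and the share called higher was 0%, against 2.99%. A difference of 2-fold or more was found in 2 of the 6. The median log2 fold change of the channel genes was -0.24, against 0.00 over all tested genes, and 37 of the 58 (63.8%) lay below 0, against 49.6% of all tested genes. Scaling to the column total called 10 channel genes, all lower, and called 5.69% of all tested genes lower. No call was left with a variance not allowed to follow the level, where none of all the tested genes passed. At an unadjusted limma p under 0.05 were 19 channel genes there, and 3133 of all 14368 tested genes. In the reported fit 22 channel genes (37.9%) were, against 26.3% of all tested genes. Without ctrl replicate 1 no channel gene call was left either, and few of all the tested genes passed. Without ctrl replicate 2, where 1.33% of all tested genes passed, the single channel gene called was Cacng5, higher at a log2 fold change of 1.8 (limma adjusted p = 0.0389).

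**Figure D1:**
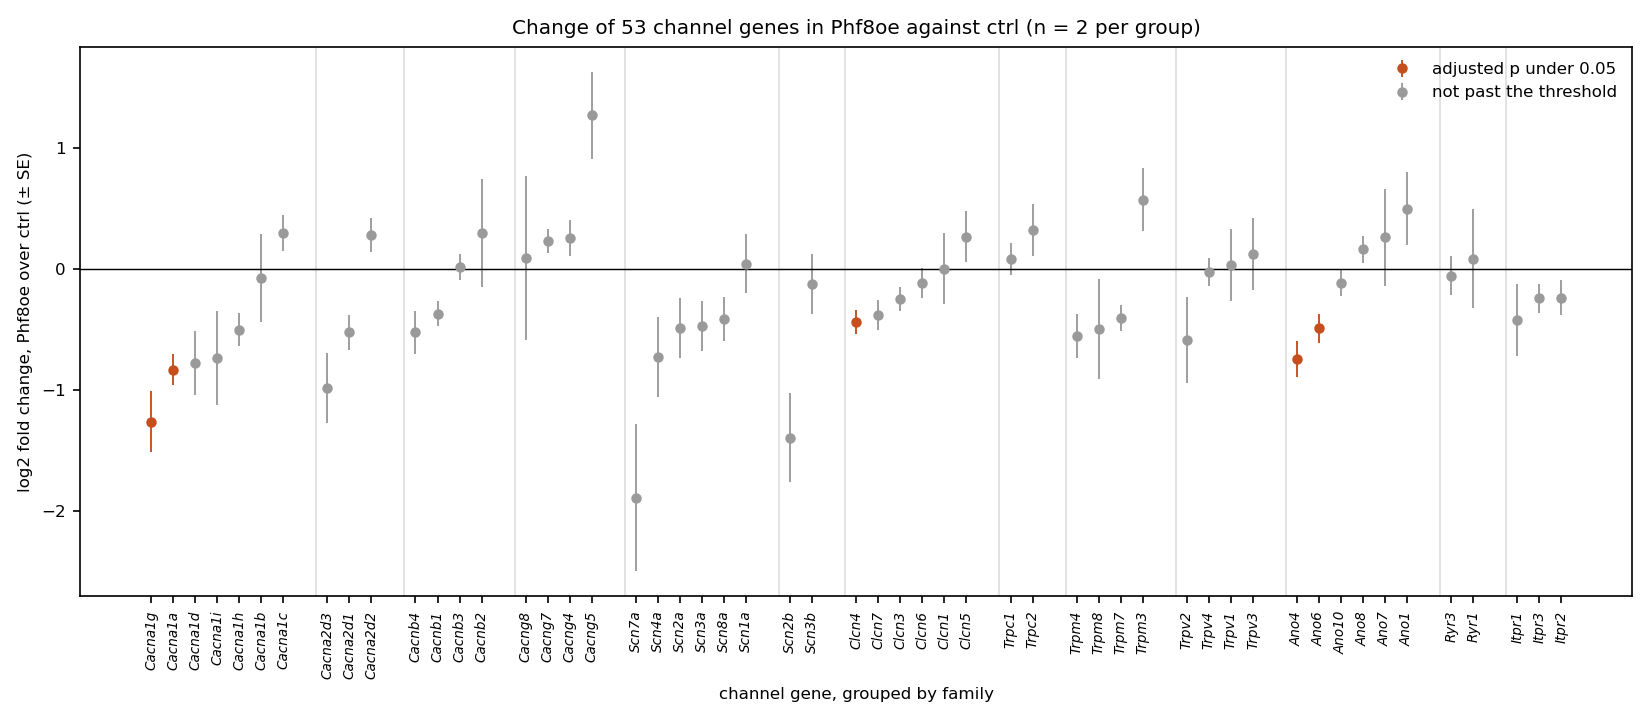
Log2 fold change of 53 of the 58 channel genes, Phf8oe over ctrl, with its SE on the vertical axis, grouped by family along the horizontal axis (n = 2 libraries per group, orange for an adjusted p under 0.05). The orange points run from -1.26 for Cacna1g to -0.44 for Clcn4. Among the points that did not pass, Cacng5 at 1.27 stands highest and Scn7a at -1.89 lowest.

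Some facts of the libraries bear on all of these values. Normalized counts of Phf8 were 5650 and 10796 in Phf8oe and 2026 and 2205 in ctrl (log2 fold change 1.89, SE 0.35, limma adjusted p = 0.0631), so the transduced gene was higher in both Phf8oe libraries without passing the test. Estimated reads ranged from 28400000 in Phf8oe replicate 2 to 47800000 in ctrl replicate 1. Mitochondrial genes took 5.34% and 4.76% of the values in Phf8oe and 3.68% and 3.62% in ctrl. All 10 markers of the oligodendrocyte lineage were listed, with summed values of 728996 and 671981 in Phf8oe and 481149 and 476338 in ctrl, 4 of them called higher and 1 lower. Of 10 neuronal markers 9 were listed and none was called. They summed to 15295 and 15650 in Phf8oe and 24970 and 20726 in ctrl, and none was at 0, Rbfox3 having 28 and 6 in Phf8oe and 27 and 38 in ctrl. Of 7 astrocyte markers 6 were listed, none of them at 0, 2 called higher (Slc1a3 and Aldh1l1) and 1 (Gfap) lower. They summed to 35665 and 43039 in Phf8oe and 98591 and 104737 in ctrl. Gfap alone, with 10834 and 19613 in Phf8oe and 79141 and 80736 in ctrl, made up most of the ctrl sums. Col1a1, the single fibroblast marker listed of 6, was called lower, with 121 and 164 in Phf8oe and 454 and 437 in ctrl. The part of these shifts in the channel results was not tested, and fewer cells of a type cannot be told apart from less RNA per cell.

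The Phf8oe libraries were not alike. Of the 58 channel genes 41 (70.7%) had a smaller value in Phf8oe replicate 2 than in replicate 1, against 48.5% of all tested genes. Set against the ctrl mean, the median difference was -0.11 (log2) in Phf8oe replicate 1, where 33 genes lay below 0, and -0.42 in Phf8oe replicate 2, where 44 did. The replicate with the lower channel values was the one with the higher Phf8 value and the fewest reads. Differences between replicates (log2) had an SD of 0.58 over the channel genes in Phf8oe and 0.35 in ctrl, against 0.41 and 0.32 over all tested genes. Without Phf8oe replicate 1 the median log2 fold change of the channel genes was -0.39, and without Phf8oe replicate 2 it was -0.11. Over all tested genes it was 0.00 and 0.01 in the same fits. Calls rose in both fits, among the channel genes and over the whole table, the spread then being measured in ctrl alone.

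**Figure D2:**
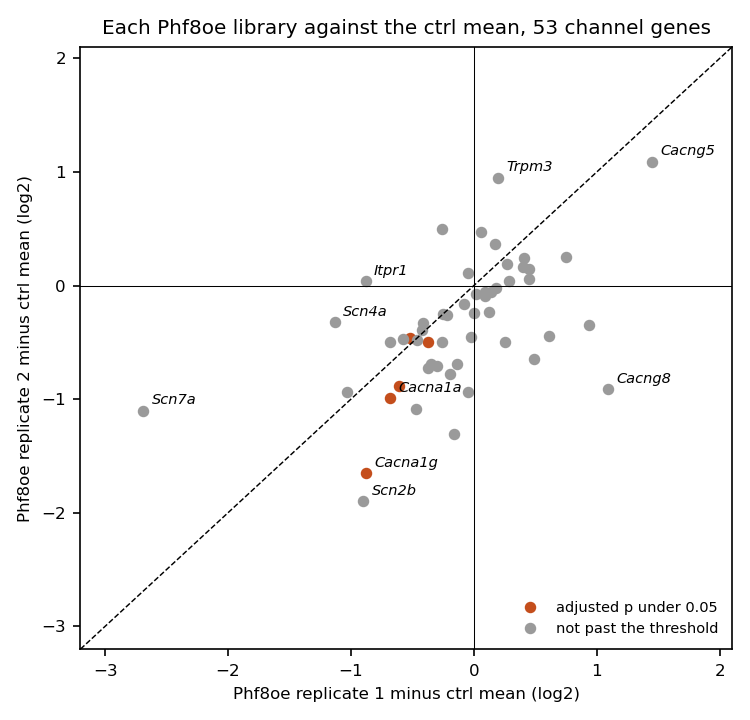
Difference of each Phf8oe library from the ctrl mean in log2 units, replicate 1 on the horizontal and replicate 2 on the vertical axis, for 53 of the 58 channel genes (orange for an adjusted p under 0.05, dashed line for equal values). More genes lie below the dashed line than above it, and all 5 orange points lie below 0 on both axes.

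In the pore-forming alpha1 subunits of calcium channels, 2 of 7 genes were called, both lower, as were 4.65% of all tested genes. The groups did not overlap in 6 of the 7 (5 lower, 1 higher). Among all tested genes, 57.6% had non-overlapping groups, 28.7% lower and 28.9% higher in Phf8oe. Over the 58 channel genes this held for 38 (65.5%), 29 lower and 9 higher. Cacna1g encodes a T-type channel, which opens at low voltage. It had 583 and 343 normalized counts in Phf8oe, against 1151 and 1005 in ctrl. Both Phf8oe libraries lay well under both ctrl libraries, and they differed from each other by a ratio of 1.7. Cacna1g fell 2.4-fold (log2 fold change -1.26, SE 0.25, limma adjusted p = 0.0382). Without 1 library its log2 fold change lay between -1.65 and -0.88, and its adjusted p was 0.317 without ctrl replicate 1 and 0.144 without ctrl replicate 2.

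The other T-type genes lay on the same side without passing. Cacna1h had 8462 and 6365 in Phf8oe, against 10459 and 10350 in ctrl (log2 fold change -0.50, SE 0.14, limma adjusted p = 0.0608). The ctrl libraries were nearly equal here and the Phf8oe libraries were not, replicate 2 being the lower. It overlaps Tpsg1, a gene with at most 41 in any library. Cacna1i had 70 and 31 in Phf8oe, against 75 and 82 in ctrl, so Phf8oe replicate 1 stood close to ctrl.

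Cacna1a, the pore of the P/Q-type channel, is a high-voltage-activated gene of presynaptic terminals in neurons. It had 1905 and 1533 in Phf8oe, against 3242 and 2856 in ctrl. The groups were far apart for their spread, and among the channel genes it had the smallest p. Cacna1a fell 1.78-fold (log2 fold change -0.83, SE 0.13, limma adjusted p = 0.00929). Its adjusted p was 0.184 without ctrl replicate 1 and 0.0579 without ctrl replicate 2, at log2 fold changes of -0.74 and -0.92.

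L-type and N-type pores did not pass. Cacna1c, the L-type pore best known from heart and smooth muscle, had 829 and 671 in Phf8oe, against 587 and 627 in ctrl (log2 fold change 0.30, SE 0.15, limma adjusted p = 0.235). It was the only alpha1 gene with both Phf8oe libraries above ctrl. Cacna1d, the other L-type pore listed, had 120 and 78 in Phf8oe, against 184 and 151 in ctrl (log2 fold change -0.78, limma adjusted p = 0.104), the reverse side. Cacna1b, the N-type pore, had 248 and 112 in Phf8oe, against 170 and 182 in ctrl. Its Phf8oe libraries lay on either side of both ctrl libraries.

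None of the 11 auxiliary subunit genes of calcium channels passed. Of the alpha2delta genes, Cacna2d1, which encodes a binding target of gabapentin, had 416 and 452 in Phf8oe, against 638 and 611 in ctrl (log2 fold change -0.52, SE 0.14, limma adjusted p = 0.0555). Cacna2d3 had 33 and 35 in Phf8oe, against 74 and 63 in ctrl (log2 fold change -0.99, limma adjusted p = 0.0694). In both genes the groups did not overlap and each group was tight. Cacna2d2 had 1004 and 847 in Phf8oe, against 712 and 810 in ctrl, the only alpha2delta gene on the higher side.

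The beta subunits bind the pore inside the cell and help it reach the membrane. Cacnb1 had 1766 and 1870 in Phf8oe, against 2398 and 2305 in ctrl (log2 fold change -0.37, SE 0.10, limma adjusted p = 0.059). It overlaps the ribosomal protein gene Rpl19, which had 26172 and 28225 in Phf8oe and 21566 and 23533 in ctrl, the opposite side. Cacnb4 had 345 and 273 in Phf8oe, against 463 and 421 in ctrl, lower in both. Cacnb3 stood near no change, with 2718 and 2438 in Phf8oe and 2432 and 2663 in ctrl (log2 fold change 0.02, 95% interval -0.23 to 0.26). Cacnb2 had 75 and 30 in Phf8oe, against 33 and 45 in ctrl, and its groups overlapped.

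None of the 4 gamma genes passed, and their log2 fold changes lay between 0.09 and 1.27. The proteins listed here are best known as auxiliary subunits of AMPA-type glutamate receptors rather than of calcium channels. Cacng5 had 371 and 287 in Phf8oe, against 93 and 195 in ctrl. Both Phf8oe libraries lay above both ctrl libraries, and the ctrl libraries differed from each other by more than the Phf8oe libraries did (log2 fold change 1.27, SE 0.36, limma adjusted p = 0.0845). Its log2 fold change ran from 0.74 to 1.8 with 1 library left out. Cacng7 had 15100 and 14271 in Phf8oe, against 12278 and 12725 in ctrl (log2 fold change 0.23, SE 0.10, limma adjusted p = 0.18). Cacng4 had 9515 and 7221 in Phf8oe, against 6379 and 7558 in ctrl, so the groups overlapped. Cacng8 was the channel gene with the smallest mean, at 19 and 4 in Phf8oe and 10 and 7 in ctrl. Its groups overlapped too. Set against the ctrl mean it lay at 1.09 (log2) in Phf8oe replicate 1 and at -0.91 in Phf8oe replicate 2. Without ctrl replicate 2 its log2 fold change was -0.14. Without Phf8oe replicate 1 or ctrl replicate 1 it fell under the filter on low values and was not fitted.

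**Figure D3:**
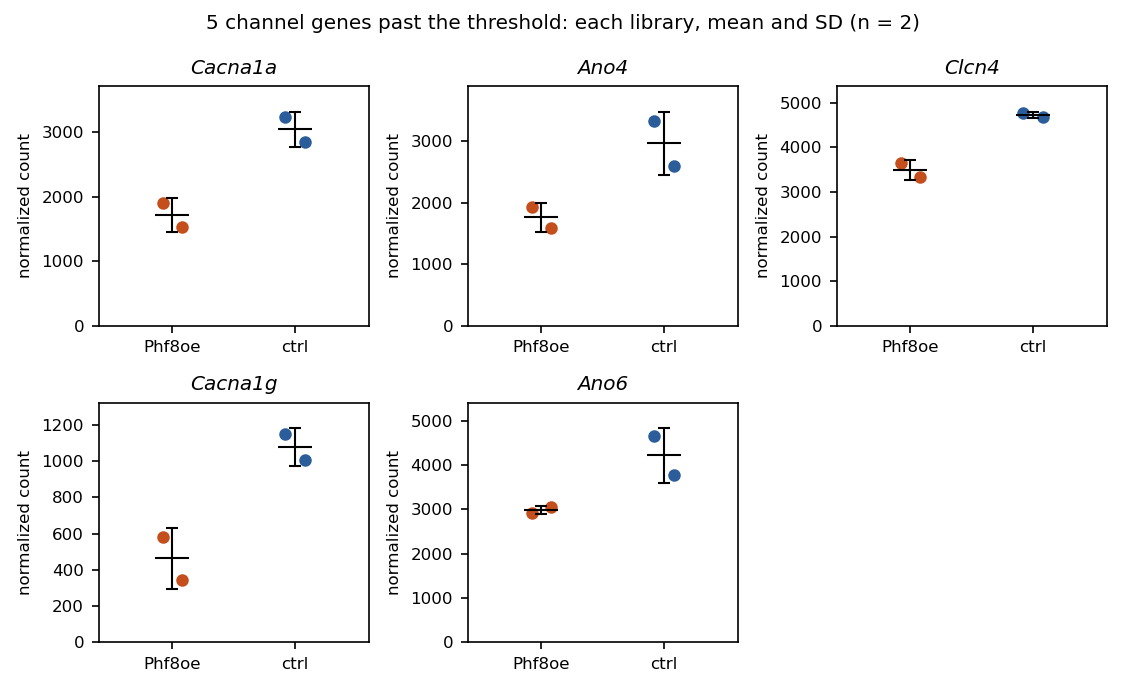
Normalized counts of 5 of the 6 channel genes past the threshold in each library (points), with the mean and SD of 2 libraries per group (Phf8oe left, ctrl right), each panel starting at 0. In every panel both Phf8oe points lie below both ctrl points, with the widest gap relative to ctrl in Cacna1g, at 583 and 343 against 1151 and 1005.

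Sodium channels open on depolarisation and carry the upstroke of the action potential in neurons. Their beta subunits modulate the pore and also act as adhesion molecules. Scn2b, which encodes a beta subunit, had 43 and 21 in Phf8oe, against 76 and 86 in ctrl (log2 fold change -1.40, SE 0.37, limma adjusted p = 0.0541). Scn3b had 387 and 229 in Phf8oe, against 333 and 317 in ctrl, with no separation.

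None of the 7 sodium channel pore genes passed, although 6 had non-overlapping groups, all lower in Phf8oe, as had 28.7% of all tested genes. Scn4a, the pore of skeletal muscle, had 783 and 1381 in Phf8oe, against 2014 and 1470 in ctrl. Phf8oe replicate 2 came close to ctrl replicate 2, and the spread within each group was wide (log2 fold change -0.73, SE 0.33, limma adjusted p = 0.257). Scn8a, found at nodes of Ranvier in neurons, had 872 and 596 in Phf8oe, against 986 and 935 in ctrl. Scn2a had 191 and 127 in Phf8oe, against 245 and 195 in ctrl. Scn3a, a pore of the developing brain, had 124 and 122 in Phf8oe, against 176 and 166 in ctrl (log2 fold change -0.47, limma adjusted p = 0.187), a narrow spread in both groups. Scn7a, a relative of the pores that senses sodium, had 4 and 14 in Phf8oe, against 44 and 22 in ctrl. It had the most negative log2 fold change of the 58 genes at -1.89 (SE 0.61, limma adjusted p = 0.0975), on few reads. Scn1a had 347 and 302 in Phf8oe, against 245 and 403 in ctrl, with the Phf8oe values inside the ctrl range.

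The Clcn family holds chloride channels of the cell surface and chloride-proton exchangers of endosomes and lysosomes. Of its 8 genes Clcn4, an endosomal exchanger, was the only one called. It was lower, as were 4.65% of all tested genes. It had 3651 and 3339 in Phf8oe, against 4782 and 4688 in ctrl. The ctrl libraries were within a narrow band and both Phf8oe libraries lay under it. Clcn4 fell 1.36-fold (log2 fold change -0.44, SE 0.10, limma adjusted p = 0.0327), with adjusted p = 0.311 without ctrl replicate 1 and 0.155 without ctrl replicate 2.

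Other exchangers were mixed. Clcn7, the lysosomal exchanger, had 1705 and 1444 in Phf8oe, against 2156 and 1941 in ctrl (log2 fold change -0.38, SE 0.12, limma adjusted p = 0.0868). Clcn3 had 5461 and 5480 in Phf8oe, against 6837 and 6209 in ctrl (log2 fold change -0.25, limma adjusted p = 0.147). Both had non-overlapping groups with Phf8oe lower. Clcn6, of late endosomes, had 8063 and 6840 in Phf8oe and 8712 and 7448 in ctrl, with the same gap between replicates in each group and no separation. Clcn5 had 161 and 185 in Phf8oe, against 154 and 133 in ctrl, on the higher side. The muscle channel gene Clcn1 had 50 and 44 in Phf8oe and 43 and 51 in ctrl (log2 fold change 0.00).

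Anoctamins are calcium-activated channels and lipid scramblases, and 2 of 6 were called, both lower, as were 4.65% of all tested genes. Ano4 had 1930 and 1596 in Phf8oe, against 3331 and 2603 in ctrl. The groups were separate, with replicate 1 the higher of each. Ano4 fell 1.68-fold (log2 fold change -0.75, SE 0.15, limma adjusted p = 0.026), with adjusted p = 0.258 without ctrl replicate 1 and 0.052 without ctrl replicate 2. Ano6, a scramblase that exposes phosphatidylserine on the outer face of the membrane, had 2923 and 3058 in Phf8oe, against 4654 and 3786 in ctrl. The Phf8oe libraries agreed closely and the ctrl libraries less so. Ano6 fell 1.4-fold (log2 fold change -0.49, SE 0.12, limma adjusted p = 0.0406). It had the largest adjusted p of the 6 and was not called without robust moderation (0.0649), with upper quartile scaling (0.0502), without ctrl replicate 1 (0.403) or without ctrl replicate 2 (0.0758).

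The remaining anoctamins did not pass. Ano8, which tethers the endoplasmic reticulum to the plasma membrane, had 8794 and 7408 in Phf8oe, against 7209 and 7217 in ctrl (log2 fold change 0.16, 95% interval -0.09 to 0.41). Ano10 had 2463 and 2325 in Phf8oe, against 2732 and 2464 in ctrl, the groups just separate. Ano1, the calcium-activated chloride channel of epithelia, had 88 and 62 in Phf8oe, against 45 and 60 in ctrl. Ano7 had 17 and 23 in Phf8oe, against 14 and 19 in ctrl.

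Promoter sequence was available for 4 of the 6 called genes and is shown because these genes fell together and because the methyl mark that Phf8 reads is common at promoters rich in CG. Each line gives the 250 bases before the annotated start, on the gene's strand, from RefSeq on GRCr8, with every CG in capitals. Cacna1a lies at chr19:40650469-40650718 (minus strand), Ano6 at chr7:128812881-128813130 (plus strand), Clcn4 at chrX:27290689-27290938 (plus strand) and Ano4 at chr7:25540201-25540450 (minus strand).
Cacna1a: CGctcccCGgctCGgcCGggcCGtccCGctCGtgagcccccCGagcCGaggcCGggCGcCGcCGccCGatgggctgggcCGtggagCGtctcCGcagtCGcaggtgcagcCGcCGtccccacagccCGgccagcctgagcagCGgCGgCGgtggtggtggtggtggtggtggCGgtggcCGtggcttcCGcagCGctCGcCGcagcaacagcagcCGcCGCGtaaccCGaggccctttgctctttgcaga
Ano6: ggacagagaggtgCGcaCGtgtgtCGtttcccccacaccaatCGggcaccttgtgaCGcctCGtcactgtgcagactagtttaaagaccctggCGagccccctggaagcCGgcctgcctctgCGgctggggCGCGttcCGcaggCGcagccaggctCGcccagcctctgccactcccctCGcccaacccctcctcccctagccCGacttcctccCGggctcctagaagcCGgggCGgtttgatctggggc
Clcn4: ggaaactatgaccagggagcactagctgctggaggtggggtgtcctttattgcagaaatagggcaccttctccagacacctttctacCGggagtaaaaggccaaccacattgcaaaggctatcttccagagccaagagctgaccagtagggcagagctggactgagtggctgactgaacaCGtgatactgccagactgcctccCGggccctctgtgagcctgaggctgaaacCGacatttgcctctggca
Ano4: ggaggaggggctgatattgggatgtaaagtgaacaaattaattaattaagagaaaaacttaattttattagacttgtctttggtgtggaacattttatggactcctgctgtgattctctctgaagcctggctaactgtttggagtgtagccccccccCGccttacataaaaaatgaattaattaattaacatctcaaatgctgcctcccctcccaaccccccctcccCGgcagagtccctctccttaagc

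These windows differed widely in CG content. Cacna1a held 34 CG, more than 96.8% of the 27457 RefSeq promoters, and Ano6 held 19, more than 80.2%. Clcn4 held 4, with fewer in 36.1% of promoters, and Ano4 held 2, with fewer in 17.6%. The 43 channel genes with a promoter sequence had a median of 15 CG (1 to 56), against 16 over 9954 tested genes with one and 6 over all promoters. Of the motifs searched, GGGCGG on either strand, the box bound by Sp factors, was found in Cacna1a and Ano6. It was present in 22 of the 43 channel promoters (51.2%), against 59.1% of the tested genes with a promoter sequence and 32.4% of all promoters. TGANTCA, the AP-1 motif, which reads the same on both strands, was in none of the 4 windows, in 2 of the 43 (4.65%), in 4.21% of the tested genes and in 6.36% of all promoters. A GGGCGG match holds 1 CG of the count above, so these descriptions overlap.

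TRP channels are cation channels gated by lipids, temperature, stretch or internal calcium, and none of the 11 genes passed. Trpm7, a channel fused to a kinase that carries magnesium and calcium, came closest. It had 1764 and 1791 in Phf8oe, against 2470 and 2244 in ctrl (log2 fold change -0.41, SE 0.11, limma adjusted p = 0.0508). The Phf8oe libraries were nearly equal and both lay below ctrl. Trpm4, a calcium-activated channel for monovalent cations, had 307 and 239 in Phf8oe, against 387 and 408 in ctrl (limma adjusted p = 0.0956). Trpm3, a heat-gated and steroid-gated channel, lay on the other side with 191 and 321 in Phf8oe, against 178 and 155 in ctrl (log2 fold change 0.57, SE 0.26, limma adjusted p = 0.207). That difference came mostly from Phf8oe replicate 2. Trpm8, the cold and menthol receptor, had 25 and 13 in Phf8oe, against 28 and 24 in ctrl.

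In the Trpc genes, Trpc1 had 921 and 799 in Phf8oe, against 852 and 771 in ctrl, without separation. Trpc2, a channel of the vomeronasal organ in rodents, had 149 and 132 in Phf8oe, against 111 and 113 in ctrl.

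In the Trpv genes, the osmotically sensitive Trpv4 had 1108 and 1042 in Phf8oe, against 1060 and 1130 in ctrl (log2 fold change -0.03, 95% interval -0.29 to 0.23). The capsaicin receptor Trpv1 had 42 and 47 in Phf8oe, against 46 and 41 in ctrl. Neither gene separated the groups. Trpv2 had 22 and 25 in Phf8oe, against 29 and 44 in ctrl (limma adjusted p = 0.33), and Trpv3, a warmth receptor of skin, had 90 and 153 in Phf8oe, against 122 and 95 in ctrl.

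The release channels of the endoplasmic reticulum, which pass stored calcium to the cytosol, did not pass in any of 5 genes. Itpr2, an inositol trisphosphate receptor prominent in astrocytes, had 5385 and 3983 in Phf8oe, against 5440 and 5471 in ctrl (log2 fold change -0.24, SE 0.14, limma adjusted p = 0.333). Phf8oe replicate 1 matched ctrl closely and replicate 2 lay lower. Itpr1 showed the reverse, with 326 and 616 in Phf8oe, against 578 and 625 in ctrl. Itpr3 had 853 and 830 in Phf8oe, against 952 and 1040 in ctrl (limma adjusted p = 0.236), the tightest of the 3. The ryanodine receptor gene Ryr3 had 543 and 428 in Phf8oe, against 500 and 502 in ctrl, and Ryr1, the skeletal muscle form, had 78 and 37 in Phf8oe, against 40 and 64 in ctrl. Both sets overlapped.

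Genes that work with these channels were read from 4 lists. Over all tested genes 7.64% were called, 4.65% lower and 2.99% higher in Phf8oe. Of 31 tested genes of calcium entry, storage and extrusion, 1 rose, none fell and 30 did not pass (3.23% called, median log2 fold change -0.07). The riser was Slc24a2, a sodium, calcium and potassium exchanger, with 40 and 35 in Phf8oe, against 13 and 10 in ctrl. It was 3.1-fold higher (log2 fold change 1.63, SE 0.37, limma adjusted p = 0.0334) on few reads, and was not called without ctrl replicate 1 (0.218), without ctrl replicate 2 (0.165) or where a value of 50 was required in every library of 1 group, which it did not reach.

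Of 39 calcium sensors and effectors, none rose and 3 fell (median log2 fold change -0.08). The share called was 7.69%, near the 7.64% of all tested genes. Ncald, a neuronal calcium sensor protein, had 11402 and 12310 in Phf8oe, against 18141 and 16819 in ctrl, and fell 1.47-fold (limma adjusted p = 0.017). Plcb1, a phospholipase C that makes inositol trisphosphate, had 605 and 886 in Phf8oe, against 1576 and 1283 in ctrl, and fell 1.94-fold (limma adjusted p = 0.036). Nfatc2, a transcription factor activated by calcium and calcineurin, had 658 and 641 in Phf8oe, against 901 and 1205 in ctrl, and fell 1.6-fold (limma adjusted p = 0.0333). In each of these genes both Phf8oe libraries lay below both ctrl libraries. Their calls were lost without ctrl replicate 1 (0.239, 0.315 and 0.116 for Ncald, Plcb1 and Nfatc2) and without ctrl replicate 2 (0.0902, 0.106 and 0.195), and that of Nfatc2 also without robust moderation (0.0598).

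Of 29 channel partners and regulators, none rose and 3 fell (10.3% called, against 7.64% of all tested genes, median log2 fold change -0.02). Nedd4l, a ubiquitin ligase that removes sodium channels from the membrane, had 1111 and 1117 in Phf8oe, against 1916 and 1812 in ctrl, and fell 1.67-fold (limma adjusted p = 0.00703). Ank2, an ankyrin that anchors channels to the membrane skeleton, had 4251 and 4269 in Phf8oe, against 5706 and 5498 in ctrl, and fell 1.31-fold (limma adjusted p = 0.039). Gem, a small GTPase that inhibits voltage-gated calcium channels, had 50 and 84 in Phf8oe, against 160 and 134 in ctrl, and fell 2.24-fold (limma adjusted p = 0.0468). Groups were separate in all 3. Without robust moderation Ank2 (0.0507) and Gem (0.0711) were not called, nor were they with upper quartile scaling (0.0522 and 0.0521), which called 2 genes higher in this list. All 3 calls were lost without ctrl replicate 1 (0.149, 0.354 and 0.388 for Nedd4l, Ank2 and Gem) and without ctrl replicate 2 (0.0583, 0.163 and 0.155), and that of Gem without Phf8oe replicate 1 (0.0631).

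Of 27 other channels for the same ions, none rose and 2 fell (7.41% called, against 7.64% of all tested genes). Their median log2 fold change was -0.27, near that of the 58 channel genes. Piezo1, a stretch-gated channel, had 1447 and 1846 in Phf8oe, against 3938 and 4053 in ctrl. It fell 2.44-fold (log2 fold change -1.29, SE 0.13, limma adjusted p = 0.00155), a smaller adjusted p than any of the 58 channel genes reached. Its call held in all fits but those without a variance trend (0.0997) and without ctrl replicate 1 (0.0613). Tmem63a, also a mechanically gated channel, had 359 and 283 in Phf8oe, against 607 and 610 in ctrl, and fell 1.91-fold (limma adjusted p = 0.0149). Its adjusted p was 0.202 without ctrl replicate 1 and 0.105 without ctrl replicate 2.

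**Figure D4:**
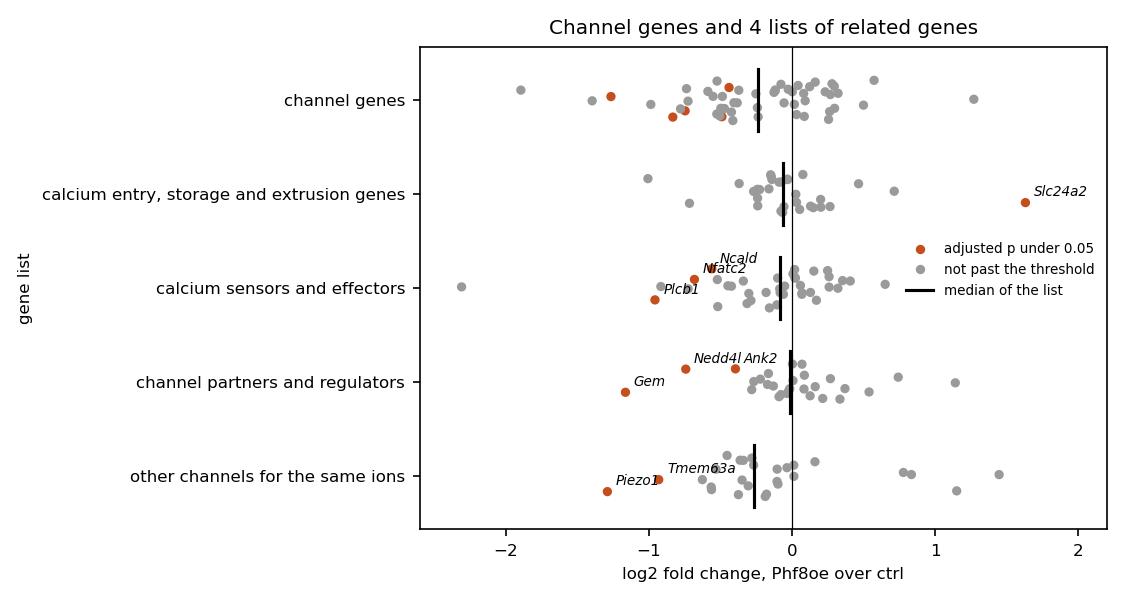
Log2 fold changes, Phf8oe over ctrl, of 53 of the 58 channel genes and of 4 lists of related genes on the horizontal axis, 1 point per gene (orange for an adjusted p under 0.05, black bar for the median over all its tested genes, vertical scatter added for legibility). Medians stand at -0.24 for the channel genes, -0.27 for other channels of the same ions and between -0.08 and -0.02 for the other lists, and Slc24a2 is the only orange point above 0.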

How the data were processed

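RNA-seq libraries, 2 of Phf8oe and 2 of ctrl, were paired-end with 150 bases per read, per the labels. The submitters' processing notes name the builds rn6 and Rnor_6.0 and the tools bcl2fastq 2.20, Trimmomatic 0.36, STAR 2.5.2b and DESeq2. The counter, annotation, strand setting and gene filter are not named there or in the labels. Each deposited signal value is a count per gene that had been divided by a size factor and rounded, although the labels call it raw: in Phf8oe replicate 2, 85 of 85 whole numbers that such rounding would skip between 10 and 300 were absent. A read was worth 0.9548 and 1.416 in Phf8oe replicates 1 and 2 and 0.8445 and 1.0176 in ctrl. A count model needs unscaled counts, so log2(value + 1) was tested two-sided with limma 3.58.1 (R 4.3.3), group as the single term, trended and robust moderation, and Benjamini-Hochberg adjustment over the 14368 genes with at least 10 in at least 2 libraries. All 58 channel genes passed this filter, 55 with at least 10 in all 4 libraries. The procedure was tested on simulated data. For the fit these had a single dispersion setting for all genes and libraries, whereas the replicates here differed more in Phf8oe than in ctrl.

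The channel genes, the 4 lists and the marker lists were chosen with earlier results of these data known. Named were all channel genes past the threshold, Cacna1g, the gene with the highest mean and the one with the smallest p of each family, Phf8 and up to 4 called genes of each list. Some genes that this rule takes are not reported here, and other genes were named after their values were seen. Alternatives covered scaling, filters, pseudocounts, moderation, limma-voom on estimated reads, replicate blocks and leaving out each library. All 58 names matched the GRCr8 assembly of RefSeq, where 8 overlap another tested gene, none of them called. That is not the build behind the counts, and its coordinates are given for printed promoters only. Values grow with transcript length, so means served only to choose named genes and to mark low ones, and were not read as relative expression. Tables were handled with pandas 2.3.3 and numpy 2.4.6 under Python 3.11.15 and drawn with matplotlib 3.10.9.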

Additional observations from a re-analysis of the deposited data

How the results depend on the processing

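Calls depended on the processing. The log2 fold changes of the 6 called channel genes were negative in every fit run. Their groups did not overlap, so leaving out a library could not change the sign. Some channel genes not called did change sign, as Cacnb3 did between -0.06 and 0.09 with 1 library left out. All counts are genes past a limma adjusted p of 0.05. Over all genes the reported fit called 1098 (430 higher, 668 lower). Upper quartile scaling called 1198 but moved the split to 608 higher and 590 lower, with a median log2 fold change of 0.05 over all genes. Among the channel genes it called 5, all lower. Scaling to the column total called 10 channel genes and 5 other channels for the same ions, against 6 and 2 in the reported fit, and 1240 of all genes (423 higher, 817 lower). Moderation without the robust option called 806 of all genes (256 higher, 550 lower), among them 5 channel genes and 1 channel partner. With no variance trend 0 genes of any list passed, although 3133 of all genes and 19 channel genes had an unadjusted p under 0.05. Requiring a value of 50 in every library of 1 group left 0 calls in calcium entry, storage and extrusion.

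The replicate numbers are not shown to pair the samples. The difference between replicates 1 and 2 correlated at -0.126 between Phf8oe and ctrl across tested genes, which are not independent. With the replicate number as a block, 373 genes were called, 4 of them channel genes (Clcn4 at an adjusted p of 0.0843 and Ano6 at 0.0952 were not), 0 in calcium entry and storage, 0 sensors and effectors and 1 channel partner. Crossed pairing, an alternative chosen after seeing the data, called 2354 genes, 18 of them channel genes, and 3, 9, 5 and 7 in the 4 lists in the order above.

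With 1 library left out, the group with a single sample is assumed to vary like the other. Calls over all genes then ranged from 20 (without ctrl replicate 1) to 2145 (without Phf8oe replicate 2), and were 190 without ctrl replicate 2 and 1848 without Phf8oe replicate 1. Channel gene calls ranged from 0 to 19, calcium entry and storage from 0 to 6, sensors and effectors from 0 to 11, partners from 0 to 5 and other channels from 0 to 9. The median log2 fold change of the channel genes stayed below 0, between -0.39 and -0.11. The causes of these shifts were not tested. Of the 58 channel genes 10 had a mean under 50, where few reads limit the precision.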
